A study of Mus musculus with 24 samples.

Results

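The 10 genes described here are receptor, SMAD and inhibitor genes of TGF-beta, activin and BMP signalling. They were chosen by name around Acvr1c, the gene of the receptor ALK7, with earlier results of these data known. They are 10 of the 46517 gene entries in the count table, and all 10 were among the 14866 genes that passed the filter on low counts. Messenger RNA was sequenced from βTC3 cells, an insulinoma line from the Rip-Tag2 mouse, whose beta cells form pancreatic neuroendocrine tumours. Every line carried the plasmid PB-31, with the miR-23b cluster (the miR-23b line), with miR-137 (the miR-137 line) or as a control without either (the control line). The question was how RNA levels respond when doxycycline (DOX) switches the miRNAs on. DOX was given at 2 µg/ml for 7 d (7 d DOX), given for 7 d and then left out for another 7 d (withdrawn), or not given during 7 d of culture (no DOX). Both miRNA lines had all 3 states and the control line only 7 d DOX and no DOX, so that 24 libraries fell into 8 groups of 3. A withdrawn control culture, or an untreated one of the same total time as the withdrawn cells, is not among the samples. The sources used here do not say whether a line is 1 clone or a pool. The cells of a group were plated in triplicate, so p-values measure the spread between 3 libraries, which may be technical.

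Ligands of the TGF-beta family bind a pair of type II receptors and a pair of type I receptors, and the type I receptor phosphorylates SMAD proteins that enter the nucleus with SMAD4. ALK7, ALK4 (gene Acvr1b) and TGFBR1 are type I receptors that act through SMAD2 and SMAD3, whereas BMP receptors act through SMAD1, SMAD5 and SMAD9. BAMBI, a receptor-like protein without a kinase, and SMAD7, itself a target gene of the pathway, both damp the signal. ALK7 is found in islets and fat, and is known for promoting the death of beta cells and for holding back their insulin release.

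The cluster holds miR-23b together with miR-27b and miR-24. Each miRNA pairs with messages mainly through its seed, bases 2 to 8. The mature sequences below are from RefSeq for GRCm38.p6, written 5′ to 3′ with the seed in capitals; they are shown because the seeds define the matches counted in the 3′ UTRs of the 10 genes. They lie at chr13:63300760-63300780, chr13:63301251-63301272 and chr3:118433901-118433923, all on the plus strand.
miR-27b-3p: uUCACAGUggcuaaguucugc
miR-24-3p: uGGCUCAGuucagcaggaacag
miR-137-3p: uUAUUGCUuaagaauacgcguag

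Matches were searched on the transcript strand of the longest annotated 3′ UTR of each gene (GENCODE M21, GRCm38) as ACTGTGA for miR-27b-3p, CTGAGCC for miR-24-3p and AGCAATA for miR-137-3p, including 7-letter matches that lack the first letter but end in A. Sites with all 7 letters and a final A are called 8mers. Of the 12979 UTRs of the genes tested, 29.7% held a match for miR-27b-3p, 26.8% for miR-24-3p and 15.6% for miR-137-3p. The UTR of Acvr1c, 7465 bases long, held 5 matches for miR-27b-3p, 4 of them 8mers, and 4 for miR-24-3p. UTRs with at least as many matches for miR-27b-3p made up 0.247% of all UTRs, and 3.97% of the 277 UTRs of similar length (the shorter of the 2 at least 80% of the longer). For miR-24-3p these shares were 0.909% and 7.58%. The 8mer sites of Acvr1c are printed with the 14 transcript bases before them, the match in capitals, in the order of the transcript, which runs on the minus strand of chromosome 2. They lie at chr2:58274332-58274353, chr2:58274282-58274303, chr2:58274216-58274237, chr2:58269618-58269639 and chr2:58267956-58267977.
Acvr1c miR-24-3p site: agttcgaaaaccacCTGAGCCA
Acvr1c miR-27b-3p 8mer 1: catatgtctcaaacACTGTGAA
Acvr1c miR-27b-3p 8mer 2: ctgtgacaactagcACTGTGAA
Acvr1c miR-27b-3p 8mer 3: cgacttgaacaaagACTGTGAA
Acvr1c miR-27b-3p 8mer 4: gaatgtacataaggACTGTGAA

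Bmpr2, whose RNA was higher under DOX in the miR-23b line, held 4 matches for miR-24-3p in a UTR of 8529 bases, and none for miR-27b-3p. Of the 178 UTRs of similar length, 8.43% held at least as many for miR-24-3p. Its 8mers, on the plus strand at chr1:59874250-59874271 and chr1:59878812-59878833, are shown for comparison with those of Acvr1c.
Bmpr2 miR-24-3p 8mer 1: tgtgttcttaatctCTGAGCCA
Bmpr2 miR-24-3p 8mer 2: agtgctcagaactgCTGAGCCA

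Acvr1b held 3 matches for miR-24-3p, Tgfbr1 and Bambi 2 each for miR-27b-3p, Acvr2b and Smad3 1 each for miR-27b-3p, and Smad2 1 for each of these miRNAs. Of the UTRs of similar length, 4.57% held at least as many as Acvr1b, 25.3% as Tgfbr1 and 23.8% as Bambi. Smad4 and Smad7 held none for miR-27b-3p or miR-24-3p, and none of the 10 UTRs held a match for miR-137-3p. These tallies cover miR-27b-3p, miR-24-3p and miR-137-3p alone. A match is a description of the sequence; which UTR isoform these cells use was not measured.

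The libraries held 15759849 to 24144737 gene counts each. The induced loci followed the labels: Mir27b stood at 85.5 ± 5.35 unadjusted CPM (a count as a share of the library, SD, n = 3) in the miR-23b line with 7 d DOX and at 0.481 ± 0.0597 without DOX, and Gm26871, which spans Mir137, at 123 ± 3.11 in the miR-137 line with 7 d DOX and at 4.35 ± 0.389 without. These libraries do not measure the mature miRNAs. All 10 beta cell markers were detected, with 12656 to 18168 summed CPM per library, against 0.140 to 1.21 for exocrine and duct, 0.0557 to 1.28 for endothelial, 2.30 to 4.52 for fibroblast and 1.87 to 4.13 for leukocyte markers. The 5 markers of other islet endocrine cells summed to 16.9 to 65.4 CPM, with 3 of the 5 averaging under 1 CPM and none at 0 throughout. Among the other lists, Prss2, Amy2a5 and Cd3e were at 0. Principal component 1 took up 32.3% of the variance. On it the 3 libraries of DOX-treated miR-23b cells scored 35.6 to 36.8, and the other 21 scored 11.7 or below. Among those 21, the libraries without DOX, of all 3 lines, scored -26.43 to -21.05. The DOX-treated control and miR-137 libraries and the withdrawn ones scored 5.61 to 11.7, so this component also set untreated cultures apart from the others.

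Per length, on the authors' TPM scale, the receptors and SMADs differed widely in level over the 24 libraries. Smad2 and Smad4 were the highest, at medians of 128 and 91.9 TPM. The type I receptor genes Tgfbr1 and Acvr1c followed, at medians of 40.9 TPM (37.9 to 52.1) and 34.5 TPM (15.3 to 41.0), with Acvr1b at 4.42 TPM (3.39 to 5.47). Smad7, Smad3, Bambi and Bmpr2 had medians of 4.41, 4.14, 4.12 and 3.70 TPM, and Acvr2b was lowest at 1.33 TPM (1.01 to 1.87). Of the 2 activin type II receptor genes, Acvr2a, not among the 10, was thus higher per length than Acvr2b, at a median of 10.3 TPM.

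Acvr1c (ENSMUSG00000026834; GRCm38 chr2:58267453-58357895, minus strand) was lower in the miR-23b line with 7 d DOX than in any other group. In that line it had 64.1, 59.8 and 61.2 CPM on TMM-scaled library sizes with 7 d DOX, against 155, 147 and 140.3 CPM without DOX. All 3 libraries with DOX lay below all 3 without, and the 2 groups did not overlap. Its level under DOX was 41.9% of that without, a log2 fold change of -1.25 (SE 0.04; edgeR's quasi-likelihood F test, Benjamini-Hochberg adjusted p = 1.03e-26). In the control line Acvr1c had 173, 171 and 178 CPM with 7 d DOX, against 149, 152 and 147 CPM without, and rose by 0.22 (SE 0.03, edgeR adjusted p = 1.19e-06). In the miR-137 line it had 169, 177 and 176 CPM with 7 d DOX and 167, 168 and 166 CPM without; the change of 0.06 did not pass the test (edgeR adjusted p = 0.171), although the libraries did not overlap. Tested directly, the response of the miR-23b line was lower than that of the control line (log2 difference -1.48, SE 0.05, edgeR adjusted p = 1.12e-23), and that of the miR-137 line was 1.31 above that of the miR-23b line (SE 0.05, edgeR adjusted p = 4.34e-22). The miR-137 and control lines both averaged 174 CPM with 7 d DOX, and 167 and 149 CPM without. By a smaller amount, the response of the miR-137 line was below that of the control line (-0.17, SE 0.05, edgeR adjusted p = 0.0185). This call was lost without any 1 of 3 libraries: control with 7 d DOX replicate 3 (-0.14, adjusted p = 0.0709), control without DOX replicate 3 (-0.15, adjusted p = 0.062) or miR-137 with 7 d DOX replicate 1 (-0.14, adjusted p = 0.0826). The summed CPM of the beta cell markers moved with the fall of Acvr1c, at 12656 to 13289 in the miR-23b line with 7 d DOX and 16078 to 16276 without, and its part in the result was not tested. The summed markers of other islet endocrine cells moved with DOX in every line. They stood at 37.1 to 44.8 CPM with 7 d DOX and 19.97 to 25.9 without in the miR-23b line, at 58.3 to 65.4 and 16.9 to 18.8 in the miR-137 line, and at 41.7 to 52.4 and 18.05 to 20.02 in the control line. They were at 61.4 to 64.4 CPM in the withdrawn miR-23b line and 54.3 to 62.1 in the withdrawn miR-137 line, and their part in any result here was not tested. Exons of Acvr1c overlap those of Gm13544 on the other strand over 168 bases, and the strand setting of the counting is not known, so some of its reads may belong there. In bulk RNA, fewer cells of a type and less RNA per cell cannot be told apart.

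Ordered by mean from low to high, mean CPM of Acvr1c was 61.7 ± 2.21 with 7 d DOX in the miR-23b line (SD, n = 3), 135 ± 3.24 in the withdrawn miR-23b line, 147 ± 7.23 in the miR-23b line without DOX and 149 ± 2.90 in the control line without DOX. Then came the withdrawn miR-137 line at 161 ± 4.07, the miR-137 line without DOX at 167 ± 0.866, the miR-137 line with 7 d DOX at 174 ± 4.28 and the control line with 7 d DOX at 174 ± 3.45. The libraries of neighbouring groups overlapped in 2 places of this order, between the miR-23b and control lines without DOX and between the miR-137 and control lines with 7 d DOX. Of the summed TPM of the 3 type I receptor genes Acvr1c, Acvr1b and Tgfbr1, Acvr1c made up 21.7% ± 0.383 in the miR-23b line with 7 d DOX (SD, n = 3) and 41.4% ± 2.31 without DOX. In the control line it made up 46.9% ± 0.791 with 7 d DOX and 43.6% ± 1.64 without.

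**Figure D1:**
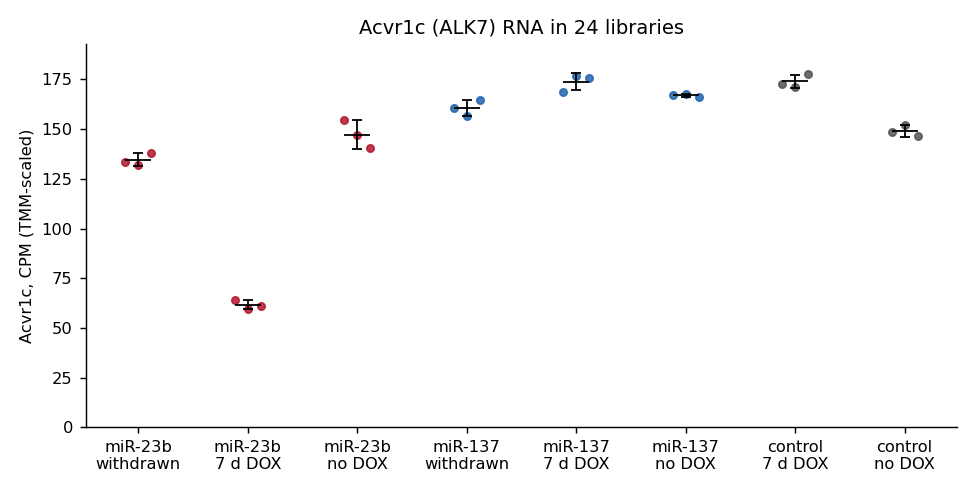
Acvr1c RNA in CPM on TMM-scaled library sizes (y axis) in the 8 groups (x axis); points are libraries, and bars are the mean and SD of 3. The miR-23b line with 7 d DOX sits at 59.8 to 64.1 CPM, and the lowest of the other libraries is at 132 CPM.

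The other type I receptor genes took different courses. Tgfbr1 (ENSMUSG00000007613; chr4:47353222-47414931, plus strand), the TGF-beta type I receptor, had 164, 155 and 153 CPM in the miR-23b line with 7 d DOX, against 139, 138 and 139 CPM without. All libraries with DOX were above all without, and Tgfbr1 rose by 0.18 (SE 0.03, edgeR adjusted p = 9.49e-06). Its response exceeded that of the control line by 0.15 (SE 0.05, edgeR adjusted p = 0.00849); in the control line it averaged 132 ± 1.82 CPM with 7 d DOX and 129.6 ± 5.43 without (edgeR adjusted p = 0.52). Acvr1b (ENSMUSG00000000532; chr15:101174067-101213684, plus strand), the activin receptor ALK4, had 48.9, 50.2 and 49.3 CPM in the miR-137 line with 7 d DOX, against 34.0, 36.6 and 34.1 CPM without. These groups did not overlap, and Acvr1b rose by 0.50 (SE 0.05, edgeR adjusted p = 1.04e-10). It also rose in the control line, by 0.25 (SE 0.05, edgeR adjusted p = 0.000144), from which the miR-137 line differed by 0.25 (SE 0.07, edgeR adjusted p = 0.0216). That difference was lost without replicate 1 of the control line without DOX (0.19, adjusted p = 0.11) or with 7 d DOX (0.22, adjusted p = 0.0521), and on log2(TPM + 0.1) (limma, 0.25, adjusted p = 0.0637). In the miR-23b line Acvr1b averaged 37.7 ± 1.98 CPM with 7 d DOX and 34.3 ± 1.22 without, and the groups overlapped. Its rise of 0.13 (edgeR adjusted p = 0.0286) was lost without replicate 2 or 3 of either group (adjusted p = 0.065 to 0.109).

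The type II receptor gene Bmpr2 (ENSMUSG00000067336; chr1:59763400-59879014, plus strand), which binds BMPs and also activins, had 104, 102 and 101 CPM in the miR-23b line with 7 d DOX, against 83.6, 80.6 and 80.2 CPM without. Every library with DOX was above every library without, and Bmpr2 rose by 0.33 (SE 0.04, edgeR adjusted p = 1.62e-08). In the control line it averaged 68.5 ± 4.73 CPM with 7 d DOX and 74.9 ± 4.11 without, with overlap. The fall there (-0.13, edgeR adjusted p = 0.0196) was lost without replicate 2 or 3 of the group without DOX (adjusted p = 0.0777 and 0.0937) or replicate 2 of that with 7 d DOX (-0.08, adjusted p = 0.19), and on the TPM values (limma adjusted p = 0.365 and 0.36). The response of the miR-23b line was 0.46 above that of the control line (SE 0.06, edgeR adjusted p = 1.31e-07). Acvr2b (ENSMUSG00000061393; chr9:119402118-119434995, plus strand), an activin type II receptor, stayed at 1.80 to 3.50 CPM in all 24 libraries, or 34 to 74 reads. Its rise of 0.44 in the control line (SE 0.17, edgeR adjusted p = 0.037) was lost in 4 of the 6 fits that each left out 1 library of the 2 groups (adjusted p = 0.0633 to 0.194), and in the miR-23b line its change of 0.31 did not pass the test (edgeR adjusted p = 0.0957).

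Both inhibitors among the 10 rose in the miR-23b line. Bambi (ENSMUSG00000024232, chromosome 18) had 67.5, 71.3 and 65.9 CPM with 7 d DOX, against 44.8, 43.7 and 43.5 CPM without. The groups were far apart, and the rise was 0.64 (SE 0.05, edgeR adjusted p = 1.49e-14). In the control line Bambi averaged 41.4 ± 1.24 CPM with 7 d DOX and 47.2 ± 2.70 without, a fall (-0.19, SE 0.05, edgeR adjusted p = 0.00167). The responses of the miR-23b and control lines had opposite signs and differed by 0.83 (SE 0.07, edgeR adjusted p = 1.87e-12). Smad7 (ENSMUSG00000025880, chromosome 18) had 14.7, 17.3 and 16.8 CPM in the miR-23b line with 7 d DOX, against 7.17, 7.56 and 7.21 CPM without. All libraries with DOX were above 14 CPM and all without were below 8, a rise of 1.15 (SE 0.10, edgeR adjusted p = 3.56e-12). Smad7 also rose in the control line, with 10.4, 9.94 and 10.2 CPM with 7 d DOX and 7.14, 8.11 and 6.67 CPM without (0.48, SE 0.11, edgeR adjusted p = 0.00074), a call lost on the TPM values (limma, 0.42 and 0.51, adjusted p = 0.0562 and 0.057). The miR-23b line exceeded this by 0.67 (SE 0.16, edgeR adjusted p = 0.000733). The rise of 0.40 in the miR-137 line (edgeR adjusted p = 0.00481) was lost without replicate 3 with 7 d DOX (0.27, adjusted p = 0.0745) and on the TPM values (limma, 0.24 and 0.29, adjusted p = 0.271 and 0.275).

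Among the SMADs that carry the signal, Smad3 (ENSMUSG00000032402; chr9:63646767-63757994, minus strand) fell in the miR-23b line and rose in the other two. It had 6.39, 6.45 and 8.26 CPM in the miR-23b line with 7 d DOX, against 11.1, 8.21 and 9.38 CPM without. The groups overlapped at the edge, where the highest library with DOX stood just above the lowest without, and Smad3 fell (-0.44, SE 0.12, edgeR adjusted p = 0.00195). In the control line it had 9.22, 10.9 and 12.1 CPM with 7 d DOX, against 8.39, 7.92 and 6.30 CPM without, and rose (0.51, SE 0.12, edgeR adjusted p = 0.000496). It rose by 0.55 in the miR-137 line (SE 0.11, edgeR adjusted p = 0.00012). The miR-23b response was below the control response (-0.95, SE 0.17, edgeR adjusted p = 1.75e-05), and the miR-137 response differed from it by 0.04 (SE 0.16, edgeR adjusted p = 0.917). On the authors' TPM values the rises in the control and miR-137 lines kept their sign but did not pass (limma on log2(TPM + 1), 0.32 and 0.35, adjusted p = 0.252 and 0.193). Smad2 (ENSMUSG00000024563, chromosome 18) stayed between 85.3 and 101 CPM in all libraries. It averaged 93.4 ± 0.568 CPM in the miR-23b line with 7 d DOX and 99.6 ± 1.82 without (-0.09, edgeR adjusted p = 0.0139), a call lost without replicate 1 of the group without DOX (-0.08, adjusted p = 0.0649), without the low-count filter (-0.09, adjusted p = 0.113) and on the TPM scale. In the miR-137 line it averaged 87.8 ± 2.22 CPM with 7 d DOX and 95.8 ± 0.905 without (-0.12, edgeR adjusted p = 0.00182), and this response was below that of the control line (-0.18, SE 0.05, edgeR adjusted p = 0.00618), a call lost without the low-count filter (-0.17, adjusted p = 0.0638). Smad4 (ENSMUSG00000024515, chromosome 18), the shared partner, stayed between 101 and 111 CPM and passed the test in 0 of the 12 comparisons, with edgeR unadjusted p of 0.142 or above and DESeq2 adjusted p of 0.349 or above. Its change in the miR-23b line was -0.02 (edgeR adjusted p = 0.648).

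**Figure D2:**
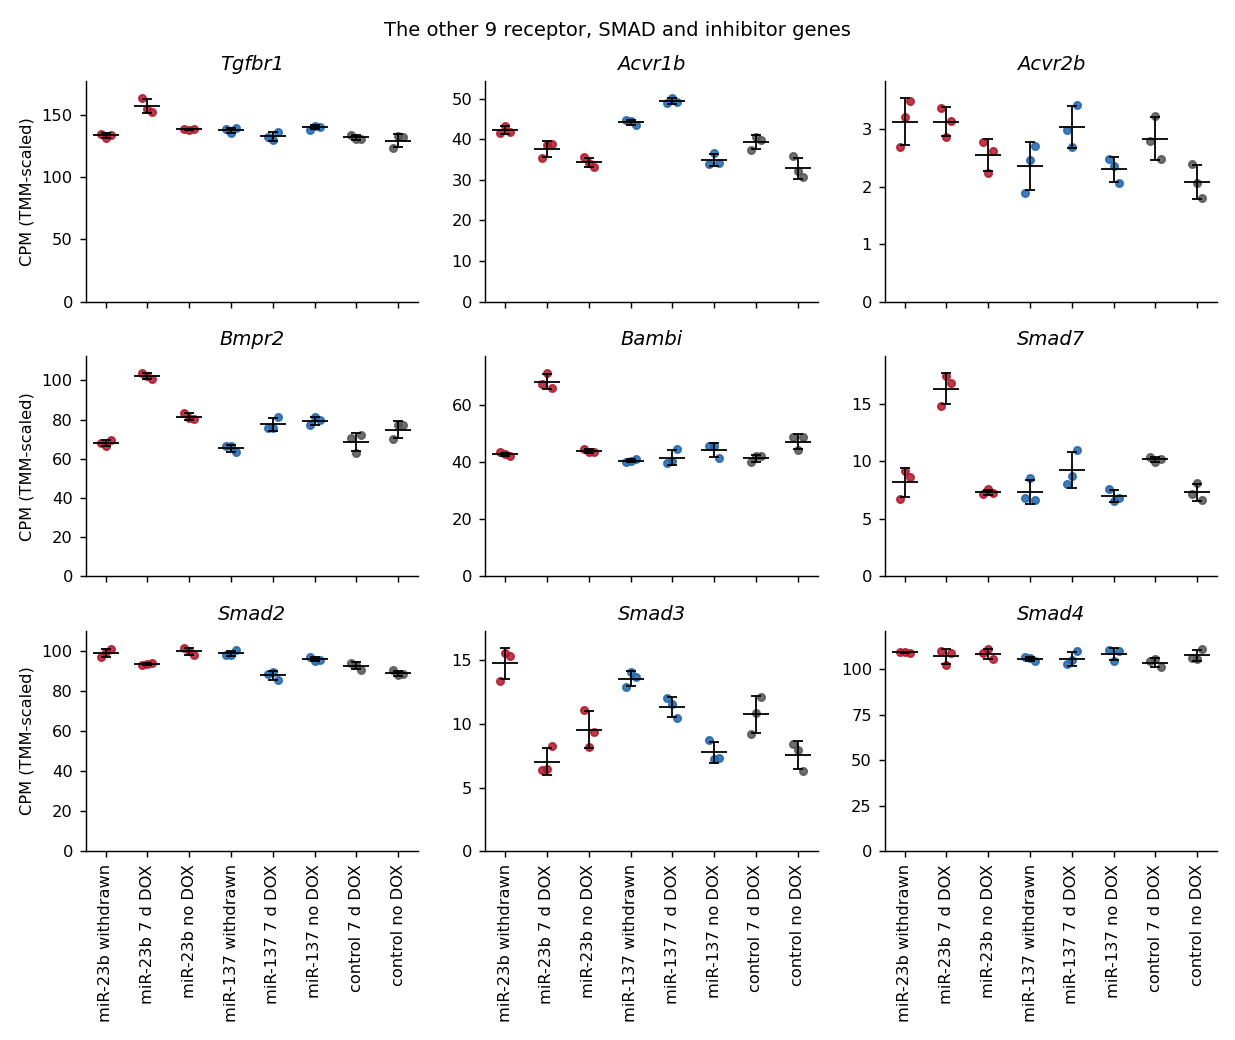
RNA levels of the 9 other genes in CPM on TMM-scaled library sizes (y axes, from 0) in the 8 groups (x axis); points are libraries, and bars are the mean and SD of 3. Bambi, Bmpr2, Tgfbr1 and Smad7 are highest in the miR-23b line with 7 d DOX, where Smad3 averages 7.04 CPM, its lowest mean.

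Counted together, 5 of the 10 genes rose and 3 fell in the miR-23b line with 7 d DOX, where 57.4% of all genes tested passed. In the miR-137 line 3 rose and 1 fell, beside 42.9% of all genes, and in the control line 5 rose and 2 fell, beside 37.8%. The miR-23b response was above the control response for 4 of the 10 and below it for 3 (37.6% of all genes passed), the miR-137 response above for 1 and below for 2 (10.7%). Between the 2 miRNA lines, 3 responses were higher and 4 lower in the miR-137 line (35.2%). With this many genes passing, the counts by themselves are no result about these 10; the sizes differ, with Acvr1c and Smad7 at more than 1 log2 unit in the miR-23b line, where the median size over all genes was 0.23.

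**Figure D3:**
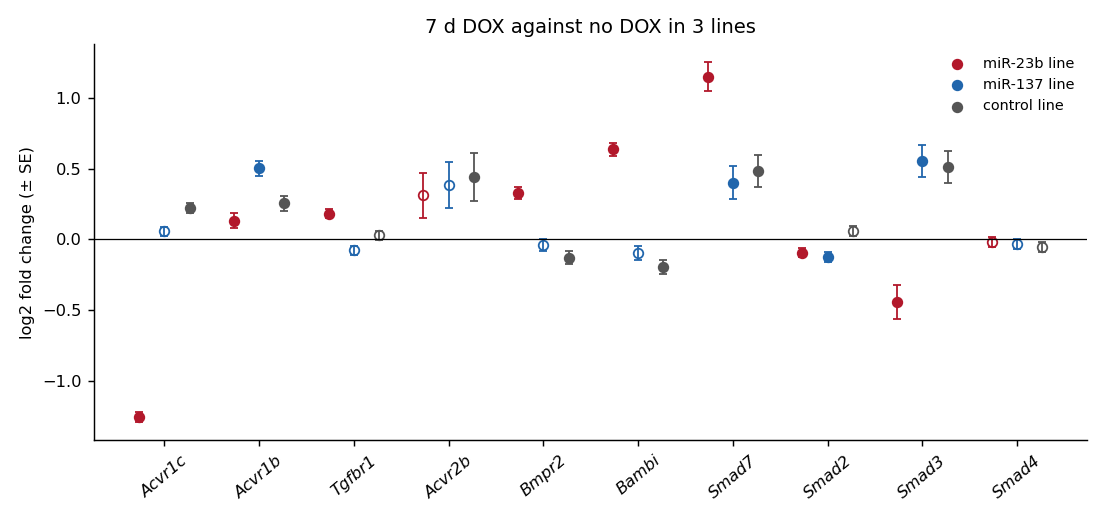
Log2 fold change of 7 d DOX against no DOX (y axis, with SE) for the 10 genes (x axis) in the miR-23b, miR-137 and control lines; filled points have an edgeR adjusted p below 0.05 and open points do not. In the miR-23b line Acvr1c is at -1.25 and Smad7 at 1.15, and Smad3 is the gene whose miR-23b point lies below 0 while both other lines lie at 0.51 or above.

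After withdrawal the genes that had moved most in the miR-23b line stood near their levels without DOX. Acvr1c had 134, 132 and 138 CPM in the withdrawn miR-23b line, against 64.1, 59.8 and 61.2 CPM with 7 d DOX, a rise of 1.12 (SE 0.04, edgeR adjusted p = 1.94e-24). It remained just below the level without DOX, with no overlap (-0.13, SE 0.04, edgeR adjusted p = 0.00297), a call lost without replicate 1 of the group without DOX (-0.09, adjusted p = 0.0626). Both comparisons use the withdrawn libraries, and the first shares the 7 d DOX libraries with the comparison of 7 d DOX and no DOX. Smad7 averaged 8.17 ± 1.26 CPM in the withdrawn cells and 16.3 ± 1.37 with 7 d DOX (-1.0, edgeR adjusted p = 1.51e-10), and against no DOX its difference of 0.14 did not pass (edgeR adjusted p = 0.373). Bambi averaged 42.8 ± 0.558 CPM in the withdrawn cells and 68.2 ± 2.76 with 7 d DOX (-0.67, edgeR adjusted p = 7.72e-15), and against no DOX it did not pass either (-0.04, edgeR adjusted p = 0.594).

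Other genes did not stand at their level without DOX. Smad3 had 13.3, 15.6 and 15.3 CPM in the withdrawn miR-23b line, against 6.39, 6.45 and 8.26 CPM with 7 d DOX (1.08, SE 0.11, edgeR adjusted p = 1.86e-10). All withdrawn libraries were also above the 8.21 to 11.1 CPM of the group without DOX (0.64, SE 0.11, edgeR adjusted p = 7.71e-06), a call lost on the TPM values (limma, 0.38 and 0.44 at both pseudocounts, adjusted p = 0.159 and 0.196). In the withdrawn miR-137 line Smad3 had 12.9, 14.1 and 13.7 CPM, again above the 7.24 to 8.72 CPM without DOX (0.81, SE 0.11, edgeR adjusted p = 7.11e-08). Against 7 d DOX its rise there was 0.26 (edgeR adjusted p = 0.048), a call lost in 16 of the 24 fits that each left out 1 library and on the TPM values (limma adjusted p = 0.514 and 0.54). Acvr1b was above no DOX in both withdrawn lines, at 42.3 ± 0.927 CPM in withdrawn and 34.3 ± 1.22 in untreated miR-23b cells (0.30, edgeR adjusted p = 1.19e-05), and at 44.2 ± 0.636 in withdrawn and 34.9 ± 1.46 in untreated miR-137 cells (0.34, edgeR adjusted p = 5.38e-07). Bmpr2 was below no DOX in both, at 68.0 ± 1.70 CPM in withdrawn and 81.4 ± 1.86 in untreated miR-23b cells (-0.26, edgeR adjusted p = 1.2e-05), and at 65.4 ± 1.85 in withdrawn and 79.5 ± 1.98 in untreated miR-137 cells (-0.28, edgeR adjusted p = 1.2e-06). On the TPM values the call in the miR-23b line was lost (limma, -0.12 and -0.15, adjusted p = 0.175 and 0.179). Since withdrawn cultures were kept longer than untreated ones, time in culture and earlier DOX cannot be told apart here.

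By count, withdrawal against 7 d DOX had 4 of the 10 genes higher and 4 lower in the miR-23b line (52.2% of all genes passed) and 2 higher and 4 lower in the miR-137 line (29.5%). Acvr1c was lower in withdrawn than in DOX-treated miR-137 cells, by a small amount (-0.11, edgeR adjusted p = 0.0085), and Bmpr2 was lower too (-0.25, edgeR adjusted p = 2.95e-05), as it was in the miR-23b line (-0.59, edgeR adjusted p = 2.52e-14). Tgfbr1 was lower in the miR-23b line (-0.24, edgeR adjusted p = 1.47e-07) and at 0.05 in the miR-137 line (edgeR adjusted p = 0.236); the difference between these values was not tested. Smad2 was higher in withdrawn than in DOX-treated miR-137 cells (0.17, edgeR adjusted p = 7.93e-05), whereas its rise of 0.08 in the miR-23b line (edgeR adjusted p = 0.0312) was lost without the low-count filter (adjusted p = 0.189) and on the TPM values. On log2(TPM + 1) it stood at -0.011, where the median of all genes was at -0.08, and so at 0.07 relative to that median. Smad7 was lower in withdrawn miR-137 cells (-0.32, edgeR adjusted p = 0.0237), a call lost without 7 d DOX replicate 3 (adjusted p = 0.237) or without withdrawn replicate 1 or 3 (adjusted p = 0.103 and 0.121), and on the TPM values (limma adjusted p = 0.41 at both). Against no DOX, 2 genes were higher and 2 lower in the miR-23b line (39.8% of all genes passed) and likewise in the miR-137 line (43.4%). The call that Bambi was lower in withdrawn than in untreated miR-137 cells (-0.13, edgeR adjusted p = 0.0288) was lost in 4 of the 6 fits that left out 1 library of these groups.

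**Figure D4:**
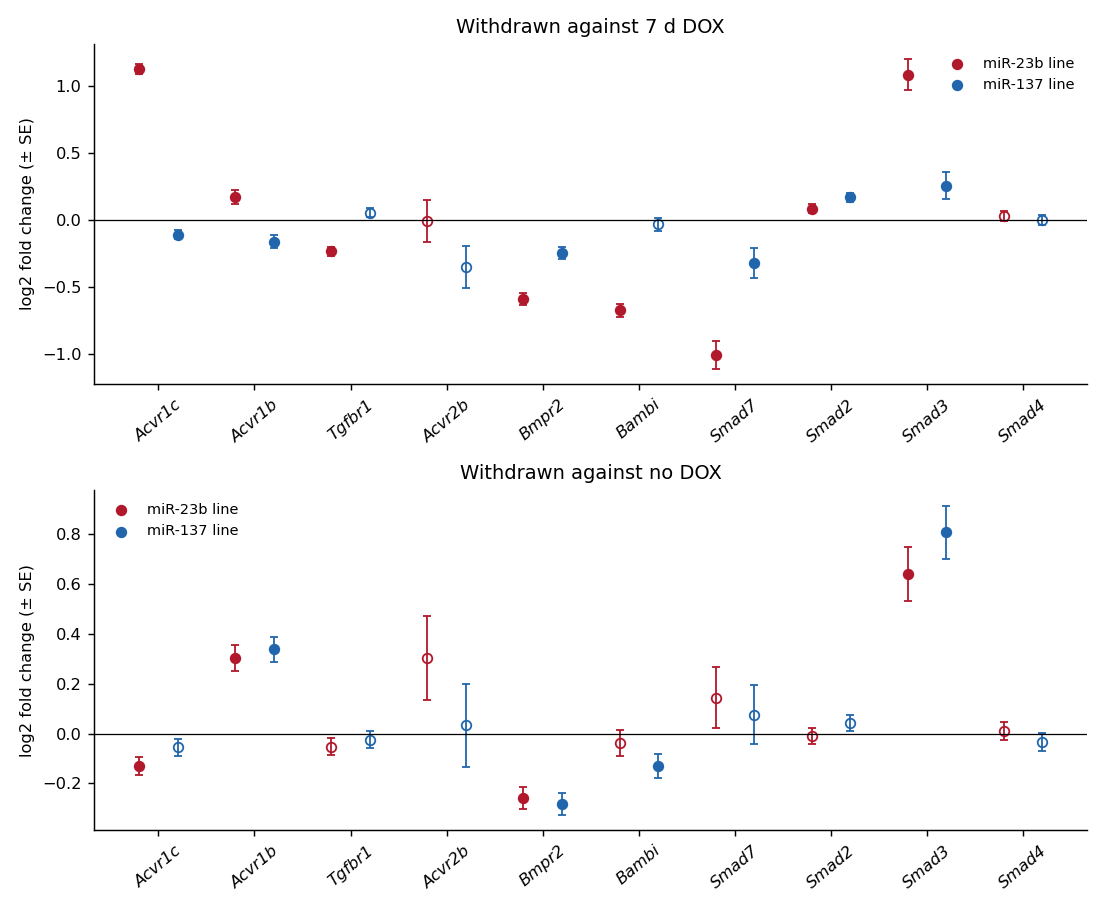
Log2 fold changes (y axes, with SE) of the 10 genes (x axes) after withdrawal, against 7 d DOX in the upper panel and against no DOX in the lower, for both miRNA lines; filled points have an edgeR adjusted p below 0.05. Smad3 and Acvr1b are above 0 and Bmpr2 below 0 against no DOX in both lines, while Acvr1c in the miR-23b line is at 1.12 against 7 d DOX and at -0.13 against no DOX.

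Without DOX the lines were close in these 10 genes. The induced loci were low but not equal. Mir27b averaged 0.481 ± 0.0597 unadjusted CPM in the untreated miR-23b line and 0.0351 ± 0.0609 in the untreated control line (SD, n = 3). Mir24-1 averaged 0.641 ± 0.0794 and 0.0518 ± 0.0527 in the same groups. Of the 10 genes, 1 differed between the untreated miR-23b and control lines (6.37% of all genes passed): Smad2 was higher, at 99.6 ± 1.82 CPM in the miR-23b line and 88.8 ± 1.27 in the control line (0.17, edgeR adjusted p = 0.00128). Between the untreated miR-137 and control lines 2 differed (2.7%), both higher: Acvr1c at 167 ± 0.866 CPM in the miR-137 line and 149 ± 2.90 in the control line (0.16, edgeR adjusted p = 0.00446), and Tgfbr1 by 0.12 (edgeR adjusted p = 0.0497), the last call lost in 22 of the 24 fits that left out 1 library.

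The other genes of the pathway were taken from 6 lists by role, 78 genes in all, of which 77 were in the table and 49 passed the low-count filter. Many ligand and co-receptor genes lay near 0 and were not tested. The activin subunit genes Inhba and Inhbb had 130 and 38 reads over all 24 libraries, Tgfbr2, the type II receptor for TGF-beta, had 3, the co-receptor gene Tdgf1 had 1, and Nodal, a ligand of ALK7, and Cfc1 had 0. Of the 49 tested, 18 were higher and 10 lower in the miR-23b line with 7 d DOX (57.1%, beside 57.4% of all genes), with a median log2 fold change of 0.08 and a median size of 0.29, beside 0.01 and 0.23 over all genes. In the miR-137 line 12 were higher and 9 lower (42.9%, beside 42.9% of all genes), and in the control line 14 and 9 (46.9%, beside 37.8%). The miR-23b response was above the control response for 12 and below it for 7 (38.8%, beside 37.6%), and the miR-137 response above for 8 and below for 4 (24.5%, beside 10.7% of all genes).

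Among target genes of the pathway, 10 were tested, and in the miR-23b line with 7 d DOX 3 rose and 4 fell (70%, beside 57.4% of all genes). Bhlhe40, a transcription factor gene that activin and TGF-beta are known to induce, had 5.07, 5.58 and 5.12 CPM with 7 d DOX, against 26.8, 30.7 and 33.2 CPM without (-2.52, SE 0.11, edgeR adjusted p = 8.2e-22). It also fell in the control line, to a mean of 16.9 ± 1.29 CPM with 7 d DOX against 27.6 ± 1.57 without, and the miR-23b response was below this (-1.82, SE 0.14, edgeR adjusted p = 6.79e-13). Cdkn1a, the gene of the cell cycle inhibitor p21, had 222, 211 and 220.3 CPM in the miR-23b line with 7 d DOX, against 109, 117 and 118 CPM without. It rose by 0.92 (SE 0.03, edgeR adjusted p = 5.76e-24), and this exceeded the control response by 0.89 (SE 0.05, edgeR adjusted p = 2.49e-17). Id4, of a family of BMP-responsive inhibitors of transcription factors, averaged 25.2 ± 2.09 CPM in the miR-23b line with 7 d DOX and 11.9 ± 1.12 without (1.10, edgeR adjusted p = 6.84e-13), and exceeded the control response by 0.73 (SE 0.14, edgeR adjusted p = 3.9e-05). The family did not move as 1. Id3 had a miR-23b response below the control response (-0.19, edgeR adjusted p = 0.0083). The responses of Id1 and Id2 were not among those called different from the control response. Id1 was higher in the withdrawn miR-23b line than with 7 d DOX, at 61.8 and 48.1 CPM (0.36, edgeR adjusted p = 1.78e-05). In that comparison Id4 was lower (-0.77, edgeR adjusted p = 3.84e-09). Junb, an AP-1 gene, fell in the miR-23b line (-1.46, edgeR adjusted p = 8.09e-17) and in the control line (-1.24, edgeR adjusted p = 3.45e-15), and the difference of -0.22 did not pass (edgeR adjusted p = 0.172). In the miR-137 line Junb averaged 79.2 ± 6.99 CPM with 7 d DOX and 81.2 ± 12.3 without, and its response was 1.2 above that of the control line (SE 0.11, edgeR adjusted p = 7.37e-10). Cdkn2b, another CDK inhibitor gene, fell in the miR-23b line (-0.45, edgeR adjusted p = 3.16e-07). Its response was not among those called different from the control response.

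Of 13 further inhibitors tested, 6 rose and 1 fell in the miR-23b line with 7 d DOX (53.8%, beside 57.4% of all genes), and 4 responses were above those of the control line (30.8%, beside 37.6%). Fstl3, a secreted protein that binds activins, had 10.9, 10.8 and 10.9 CPM in the miR-23b line with 7 d DOX, against 8.02, 7.60 and 8.58 CPM without. All libraries with DOX were higher, by 0.43 (SE 0.09, edgeR adjusted p = 0.000103), and the response was 0.76 above that of the control line (SE 0.13, edgeR adjusted p = 1.74e-05), where Fstl3 fell (-0.33, edgeR adjusted p = 0.00695). Chrd, a BMP antagonist, and Tgif1, a SMAD corepressor, had miR-23b responses 0.55 (SE 0.15, edgeR adjusted p = 0.00422) and 0.63 (SE 0.16, edgeR adjusted p = 0.00185) above those of the control line. Fstl3 and Tgif1 also responded more positively in the miR-137 line than in the control line, by 0.63 (SE 0.13, edgeR adjusted p = 0.00134) and 0.66 (SE 0.16, edgeR adjusted p = 0.0035); these differences share the control libraries. Pmepa1, a target gene that feeds back on the pathway, fell in the miR-23b, miR-137 and control lines (-0.38, -0.37 and -0.35, edgeR adjusted p = 6.9e-07, 1.57e-06 and 4.29e-06); on the TPM values the call in the miR-137 line was lost (limma, -0.27, adjusted p = 0.0643).

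All 4 other SMAD genes were tested, and Smad6, the inhibitory SMAD of the BMP branch, had the largest change in the miR-23b line among them at a low level. It had 2.24, 3.88 and 3.45 CPM with 7 d DOX, against 0.905, 0.933 and 0.687 CPM without (1.90, SE 0.23, edgeR adjusted p = 4.14e-09). In the withdrawn cells it averaged 0.542 ± 0.166 CPM. Its response exceeded that of the control line by 1.5 (SE 0.40, edgeR adjusted p = 0.00284); Smad6 was named after its values were seen. Smad9, a SMAD of the BMP branch, rose by 0.36 (SE 0.04, edgeR adjusted p = 4.1e-09).

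Of 6 other receptor and co-receptor genes tested, the co-receptor gene Tgfbr3 (betaglycan) had 10.3, 10.2 and 9.44 CPM in the miR-23b line with 7 d DOX, against 18.7, 17.9 and 19.5 CPM without. It fell clear of the untreated libraries (-0.90, SE 0.08, edgeR adjusted p = 7.05e-13), and its response was below that of the control line (-0.38, SE 0.11, edgeR adjusted p = 0.00485), a call that ended on the authors' TPM values (limma, -0.06, adjusted p = 0.622). The BMP type I receptor gene Bmpr1a averaged 193 ± 7.92 CPM with 7 d DOX and 156 ± 0.213 without (0.31, edgeR adjusted p = 8.93e-10), 0.26 above the control response (SE 0.05, edgeR adjusted p = 4.85e-05). Of the 9 ligand genes tested, Gdf11, which signals through the activin branch, fell in all 3 lines, with log2 fold changes of -0.83 in the miR-23b line (edgeR adjusted p = 2.08e-15), -0.59 in the miR-137 line (edgeR adjusted p = 5.42e-11) and -0.70 in the control line (edgeR adjusted p = 1.12e-12). Its miR-23b response did not differ from the control response beyond the test (-0.13, SE 0.08, edgeR adjusted p = 0.217). Among 7 cofactor genes, Stub1, a ubiquitin ligase gene, averaged 181 ± 2.9 CPM in the miR-23b line with 7 d DOX and 232 ± 7.9 without, and its response was below that of the control line (-0.38, SE 0.05, edgeR adjusted p = 1.22e-07).

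**Figure D5:**
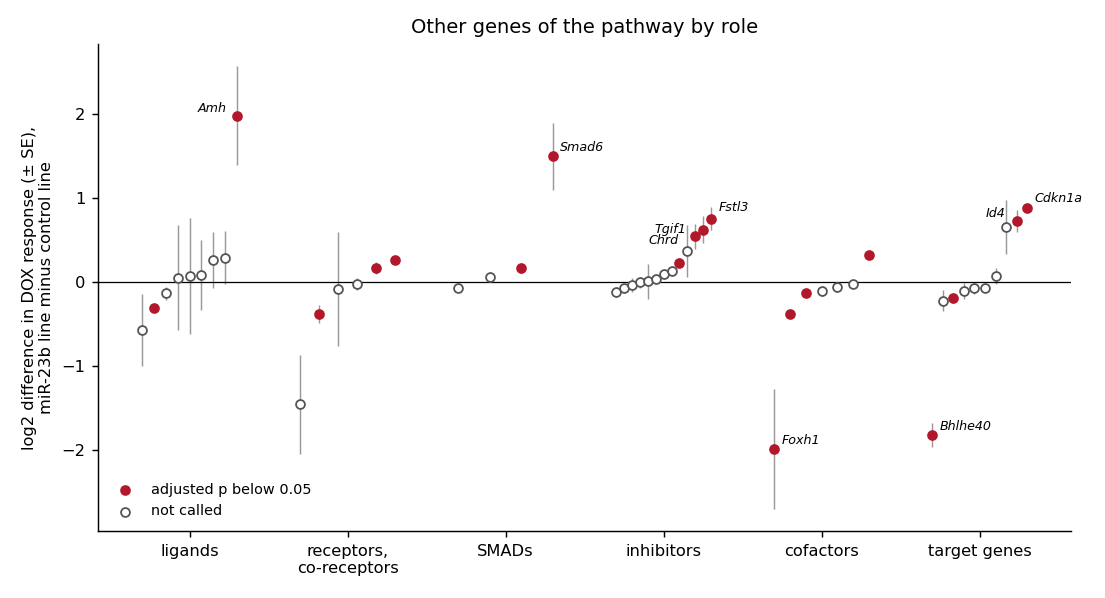
Difference between the log2 DOX responses of the miR-23b and control lines (y axis, with SE) for 49 other genes of the pathway, grouped by role (x axis) and ordered by value within a role; filled points have an edgeR adjusted p below 0.05, and those beyond 0.5 on the log2 scale are named. Bhlhe40 is at -1.82 and Cdkn1a at 0.89; Amh, Foxh1 and Smad6 are named only for their size, and Amh and Foxh1 averaged 0.671 CPM or less in every group.

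The level of Acvr1c over the 8 group means was compared with those of 730 other tested genes. These had at least 5 CPM in their highest group and a log2 level that ranged over at least 1 unit across the groups. Genes whose symbol is a clone, pseudogene or predicted gene name were left out. The 5 most alike were Ifih1 (Pearson r = 0.976 across the 8 group means), Igsf21 (0.972), Parp14 (0.970), Pla2g2d (0.970) and Rcn1 (0.967). These values rest on the miR-23b line with 7 d DOX: over the 7 other groups r was 0.651, 0.637, 0.483, 0.492 and 0.750 in the same order. Rcn1, a calcium-binding protein gene of the endoplasmic reticulum, for example averaged 37.4 CPM in the miR-23b line with 7 d DOX and 65.7 CPM without. Among the 10 genes, Bambi ran most against Acvr1c (r = -0.958 over 8 group means, -0.432 over 7), followed by Tgfbr1 (-0.856 and 0.059), Smad7 (-0.805 and 0.443) and Bmpr2 (-0.785 and 0.091). The groups share lines and libraries' scaling, and the values are a description.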

How the data were processed

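Per the labels' protocols, libraries were made with a kit for stranded mRNA. The authors deposited raw counts of reads per gene in 1 file per sample, and a table of counts of the whole series with 0 differing values. They also deposited a table read as TPM, because its columns sum to between 999999.3 and 1000001.3; it was used for levels per length and as an alternative. Per the submitters' processing notes, the tools were featureCounts, RSEM 1.2.19, HTSeq 0.6.1, STAR 2.4.0g and cutadapt 1.3. The builds named are mm10 and GRCm38. The sources used here do not say which tool made which table or how strand was set. Symbols came from a reference table of gene names, which matched 46005 of 46517 entries. Exons of Acvr1c overlap those of Gm13544 on the other strand over 168 bases. Each library held 15759849 to 24144737 gene counts; reads outside genes made up 9.62% to 12.1%, reads mapping to several places 25.4% to 27.7% and ambiguous reads 0.741% to 0.779% of the reads listed, and all were left out.

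The tests used edgeR 4.0.16 in R 4.3.3 on the counts: filterByExpr, TMM scaling, 1 model with 8 group means over all 24 libraries, quasi-likelihood F tests, and Benjamini-Hochberg adjustment over the 14866 genes tested, called below 0.05. SE was taken as the size of the log2 fold change over the root of F. The common coefficient of biological variation was 3%. The script was tested on simulated data. The 12 comparisons covered the DOX response of the 3 lines, its 3 differences between lines, the withdrawn state of both miRNA lines set against 7 d DOX or no DOX, and the untreated miRNA lines set against the untreated control. Alternatives were DESeq2 1.42.0, DESeq2's size factors (RLE), no filter, the replicate number as a block, only the libraries compared, limma 3.58.1 on log2(TPM + 1) and log2(TPM + 0.1), and leaving out each library.

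The 10 genes and all lists were chosen with earlier results of these data known. Other pathway genes were named by rule: up to 5 per direction and comparison with the largest change among those called with at least 5 CPM in the highest group. Smad6, Amh, Foxh1, the genes near 0 and changes of a named gene in further comparisons were named after their values were seen. No 2 libraries of a group agreed within counting noise (chi-square per gene 1.49 to 3.88). Same-numbered libraries of different groups deviated together weakly, with 3 of 84 pairs correlated over 0.1 and a median of 0.0275. For differently numbered libraries these were 0 of 168 pairs and -0.014, and 20 of 24 libraries correlated best with their own number. The labels tie the numbers to no shared day or batch, so they were not used as pairs.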

Additional observations from a re-analysis of the deposited data

Results flagged for a closer look

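The results below were picked out because the response to 7 d DOX differed between 2 lines, tested as a difference of responses in edgeR's quasi-likelihood fit with Benjamini-Hochberg adjustment over all genes. Each value is a log2 difference, the first line's response minus the second's. No group here has more than 3 libraries, so no library was tested as an outlier.

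The miR-23b response was above that of the control line for Cdkn1a (0.89), Bambi (0.83), Fstl3 (0.76), Id4 (0.73), Smad7 (0.67), Tgif1 (0.63), Chrd (0.55), Bmpr2 (0.46) and Tgfbr1 (0.15). It was below it for Bhlhe40 (-1.82), Acvr1c (-1.48), Smad3 (-0.95), Tgfbr3 (-0.38), Stub1 (-0.38), Bmp1 (-0.30), Id3 (-0.19) and Smad2 (-0.15). The call for Smad2 was lost without the low-count filter (-0.14, edgeR adjusted p = 0.0946) and on the TPM values (limma, -0.04 at both pseudocounts, adjusted p = 0.467 and 0.461). The call for Tgfbr3 ended on the TPM values, as given above.

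The miR-137 response was above that of the control line for Junb (1.2), Tgif1 (0.66), Fstl3 (0.63), Id1 (0.38), Cdkn1a (0.31) and Acvr1b (0.25). It was below it for Smurf2 (-0.20), Smad2 (-0.18), Acvr1c (-0.17), Trim33 (-0.15) and Bmp1 (-0.14). The call for Smad2 was lost without the low-count filter (-0.17, edgeR adjusted p = 0.0638). That for Acvr1c was lost without the filter (edgeR adjusted p = 0.0622) and on the TPM values (limma adjusted p = 0.133 and 0.135). It was also lost in 3 of the 24 fits that left out 1 library. The call for Acvr1b was lost in 2 of these 24 fits and on log2(TPM + 0.1) (limma adjusted p = 0.0637).

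The miR-137 response was above that of the miR-23b line for Bhlhe40 (1.80), Junb (1.42), Acvr1c (1.31), Smad3 (1.00), Tgfbr3 (0.57), Stub1 (0.42), Acvr1b (0.37) and Id1 (0.31). It was below it for Chrd (-0.76), Smad7 (-0.75), Bambi (-0.73), Id4 (-0.66), Cdkn1a (-0.58), Zfyve9 (-0.40), Bmpr2 (-0.37), Bmpr1a (-0.32) and Tgfbr1 (-0.26).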

How the results depend on the processing

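The fall of Acvr1c with 7 d DOX in the miR-23b line kept its direction and passed the test in every alternative run, and leaving out 1 library gave -1.29 to -1.22. Of the results of the 10 genes, 114 of 119 kept direction and call with DESeq2, 119 of 120 with RLE scaling, 112 without the filter, 116 with only the libraries compared, 98 on log2(TPM + 1), 97 on log2(TPM + 0.1) and 2806 of 2880 with 1 library left out. These totals also hold results that were not called to begin with. Calls lost numbered 5 with DESeq2, 1 with RLE scaling, 8 without the filter and 4 with only the libraries compared. On log2(TPM + 1) and log2(TPM + 0.1) 18 and 19 were lost, and 1 more was reversed at each. Leaving out 1 library lost 67, and many of these fits left out a library outside the groups compared. The smaller Acvr1c calls did not all hold. The miR-137 minus control response was -0.15 without the filter (edgeR adjusted p = 0.0622), -0.20 at both TPM settings (limma adjusted p = 0.133 and 0.135) and -0.17 to -0.14 with 1 library left out. Withdrawn against 7 d DOX in the miR-137 line gave -0.11 and -0.12 on TPM (limma adjusted p = 0.157 for both). Withdrawn against no DOX in the miR-23b line gave -0.11 at both (limma adjusted p = 0.145 and 0.142), and -0.16 to -0.087 with 1 library left out. Without DOX, the miR-137 line against the control line gave 0.14 and 0.15 (limma adjusted p = 0.25 and 0.252). Smad2 in the withdrawn against the 7 d DOX miR-23b line was at -0.011 at both TPM settings (limma adjusted p = 0.751 and 0.747), which shift all genes. Relative to the median of all genes it was at 0.07 on log2(TPM + 1).

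On log2(TPM + 1) and log2(TPM + 0.1), 2.85% and 2.76% of genes differed between the untreated miR-23b and control lines, beside 6.37% on counts. For the untreated miR-137 line these were 1.02% and 0.982%, beside 2.7%. With 1 library left out the shares ran over 3.09% to 6.92% for the miR-23b line and 1.13% to 2.93% for the miR-137 line. Without DOX, leaving out control replicate 2 (3.18%) or miR-23b replicate 1 (3.09%), 2 (3.92%) or 3 (4.14%) lowered the first over 1.5 times. Leaving out control replicate 2 (1.13%) or 3 (1.28%) or miR-137 replicate 1 (1.23%) or 2 (1.68%) did so for the second. On log2(TPM + 1), 67% of calls with 7 d DOX in the miR-23b line were higher (50.2% on counts), 69.9% of its differences from the control response (48.3%), 26.1% of miR-137 minus miR-23b responses (52.3%), 33.7% of differences of the untreated miR-23b line (56.3%) and 27.8% of calls after withdrawal (50.6%). On log2(TPM + 0.1) the median of all genes moved to -0.11 for withdrawn against 7 d DOX in the miR-23b line. The cause of these shifts was not tested.

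With the replicate number as a block, 120 of 120 results of the 10 genes kept their direction and call, 8629 genes were called with 7 d DOX in the miR-23b line (8530 without the block), and 1127 and 545 genes differed between the untreated lines (947 and 402). Over 84 same-numbered pairs the median correlation of deviations was 0.0275, with 3 pairs over 0.1. Over 168 differently numbered pairs it was -0.014, with 0 over 0.1, and 20 of 24 libraries correlated best with their own number.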

Other observations

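Because ALK7 is known as a receptor that promotes beta cell death, a list of 32 genes of the BCL2 family, the caspases and their regulators was read as well; all 32 were tested. In the miR-23b line with 7 d DOX 10 rose and 11 fell (65.6%, beside 57.4% of all genes), and in the miR-137 line 6 rose and 9 fell (46.9%, beside 42.9%). In the control line 8 rose and 10 fell (56.2%, beside 37.8%). The miR-23b response was above the control response for 8 and below it for 9 (53.1%, beside 37.6%). Bnip3, a mitochondrial BH3 protein gene that hypoxia is known to induce, had 21.8, 20.9 and 20.2 CPM in the miR-23b line with 7 d DOX, against 121, 108 and 116 CPM without (-2.45, SE 0.11; edgeR adjusted p = 1.02e-21). Its response was below that of the control line (-2.04, SE 0.14; edgeR adjusted p = 6.72e-15). The proapoptotic gene Bid averaged 2.62 ± 0.529 CPM in the miR-23b line with 7 d DOX and 6.50 ± 0.0647 without (SD, n = 3; -1.29; edgeR adjusted p = 6.22e-10), and its response was below that of the control line (-0.87; edgeR adjusted p = 0.000539). Bak1 and Bax, the pore-forming members, fell in the miR-23b line (-0.59 and -0.38; edgeR adjusted p = 1.26e-09 and 3.85e-09). Both also fell in the miR-137 line (-0.36 and -0.25; edgeR adjusted p = 1.42e-05 and 2.2e-05) and in the control line (-0.26 and -0.30; edgeR adjusted p = 0.000774 and 1.26e-06). The miR-23b response was below the control response for Bak1 (-0.33; edgeR adjusted p = 0.0044), and for Bax the difference did not pass (-0.08; edgeR adjusted p = 0.366). The proapoptotic gene Bmf averaged 7.39 ± 0.13 CPM in the miR-23b line with 7 d DOX and 3.52 ± 0.432 without and rose (1.05; edgeR adjusted p = 1.14e-08), 0.89 above the control response (edgeR adjusted p = 0.000262). Bcl2l1, which encodes the survival protein BCL-XL, had 79.4, 72.0 and 75.2 CPM in the miR-23b line with 7 d DOX, against 49.4, 49.0 and 53.4 CPM without (0.58; edgeR adjusted p = 5.74e-13), 0.41 above the control response (SE 0.07; edgeR adjusted p = 1.02e-05). It rose in the miR-137 line too (0.42; edgeR adjusted p = 4.77e-09).

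In the withdrawn miR-23b line Bnip3 averaged 70.6 ± 11.6 CPM, between the groups with 7 d DOX and without, and was below no DOX (-0.69; edgeR adjusted p = 5.1e-08). RNA levels of these genes do not measure cell death.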
